A study of Mus musculus with 27 samples.

Results

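The comparison described here is that of hippocampi from mice infused with α-IgLON5#1, human autoantibodies against IgLON5 isolated from patient plasma, with hippocampi from mice infused with a control human IgG, called pCtrl. It rests on 8 of the 27 RNA-seq libraries of the study (4 per group), chosen by their labelled tissue and treatment, with 1 library for each mouse. All mice of all groups carried an osmotic pump and were male C57Bl/6J wild-type animals without a transgene or a deletion, 8 weeks old at the start of a 14-day infusion at 0.25 μl/h into the right lateral ventricle, and the tissue came from the side opposite to the pump. The labels call the control a non-reactive monoclonal human IgG (mCtrl, mIgG), whereas the methods of the study describe IgG isolated from healthy control serum, and this difference was not resolved. The remaining libraries are 5 hippocampi of mice infused with PBS, used here as a second control, and 14 cortices. The 27 libraries come from 14 mice, 13 of which gave both a cortex and a hippocampus. Labels for the cell type read neurons, but the libraries hold bulk tissue: in pCtrl hippocampi, the synaptic gene Snap25 stood at 1776 to 2059 CPM (read counts scaled to a common library size), the myelin gene Mbp at 1235 to 2063 CPM, the astrocyte gene Gfap at 388 to 513 CPM and the microglial receptor gene Csf1r at 106 to 124 CPM. In such tissue, more cells of a type and more RNA per cell cannot be told apart.

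Total counts ranged from 39479753 to 52212204 in pCtrl hippocampi and from 19428512 to 32776892 in α-IgLON5#1 hippocampi. α-IgLON5#1 mouse 9 stood apart, with 11.6% of its counts on the single gene CT010467.1, against 0.074 to 2.21% in the other hippocampal libraries. On the first principal component of the 13 hippocampal libraries (34.2% of the variance), the 4 α-IgLON5#1 libraries lay between 38.4 and 74.7 and the 9 control libraries between -35.4 and -9.67. A tissue composition score, the mean log2 CPM of 100 genes higher in PBS cortex minus that of 100 genes higher in PBS hippocampus, was 0.111, -0.895, 0.791 and -0.767 in pCtrl mice 10, 15, 37 and 75. It was -1.21, -1.83, -0.818 and -0.916 in α-IgLON5#1 mice 8, 9, 16 and 17, -1.80 to -0.955 in PBS hippocampi and 1.78 to 2.78 in the cortices. The α-IgLON5#1 mean was lower by 1.00, a difference that an exact permutation test did not separate from the spread between mice (two-sided p = 0.0571, n = 4 per group, smallest possible p 0.0286). Whether the score measures tissue alone was not tested: of the 100 cortex-side genes, 8 were called lower in the comparison described here and 10 stand in the list of activity-regulated genes, and of the 100 hippocampus-side genes, 2 were called higher, among them Serpina3n, a gene of reactive astrocytes. Without these 20 genes, a choice made after they were seen, the difference was -0.916 (exact permutation p = 0.143, two-sided). The share of the score in the results was not tested beyond fits that hold it as a covariate, in which part of a response shared with its genes is adjusted away.

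IgLON5 is a cell adhesion molecule on the surface of neurons, anchored in the membrane by a lipid. Antibodies that bind a cell surface can be recognized in tissue through their constant part, either by Fc receptors of microglia and macrophages, which signal through a shared gamma chain, or by C1q, the first component of the complement cascade. Microglia are the resident macrophages of the brain, astrocytes respond to their signals with a change of gene expression, and B cells that enter the brain can mature into plasma cells that secrete immunoglobulin.

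In α-IgLON5#1 hippocampi, 448 of 20271 tested genes were called higher than in pCtrl hippocampi and 48 lower (edgeR quasi-likelihood test, more than 2-fold at a Benjamini-Hochberg adjusted p below 0.05), which is 2.21% and 0.237% of the genes tested. This fit treats the cortex and the hippocampus of a mouse as independent libraries, and with the 13 hippocampal libraries alone, 1 per mouse, 343 and 11 genes were called. Of the 448 higher genes, 139 stood in a list described below, 59 were immunoglobulin genes and 250 were neither, whereas no gene of the pan-neuronal, transmitter receptor or ion channel lists was called in either direction. The count of immunoglobulin genes is not read as a result, since part of them passed the count filter without a count in any pCtrl hippocampus. In 435 of the 448 higher genes, the mean of the PBS hippocampi lay nearer to pCtrl than to α-IgLON5#1 (10426 of all 20271), and 360 of them were above all 9 control hippocampi in every α-IgLON5#1 library, as were 652 of all tested genes. Of the 48 lower genes, in contrast, 37 had a PBS mean nearer to α-IgLON5#1 (9845 of all), and 4 were below all 9 control hippocampi (64 of all). Among the 4 α-IgLON5#1 mice, the higher genes reached their highest level in mouse 8 (227 genes) or mouse 9 (158 genes), more often than in mouse 16 (26) or mouse 17 (37). Among the pCtrl mice, 266 of the higher genes were highest in mouse 15. The same counts over all tested genes were not made. α-IgLON5#1 mice 8 and 9 had the smallest hippocampal libraries (19428512 and 20093818 counts), and the part of depth in these counts was not tested.

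**Figure D1:**
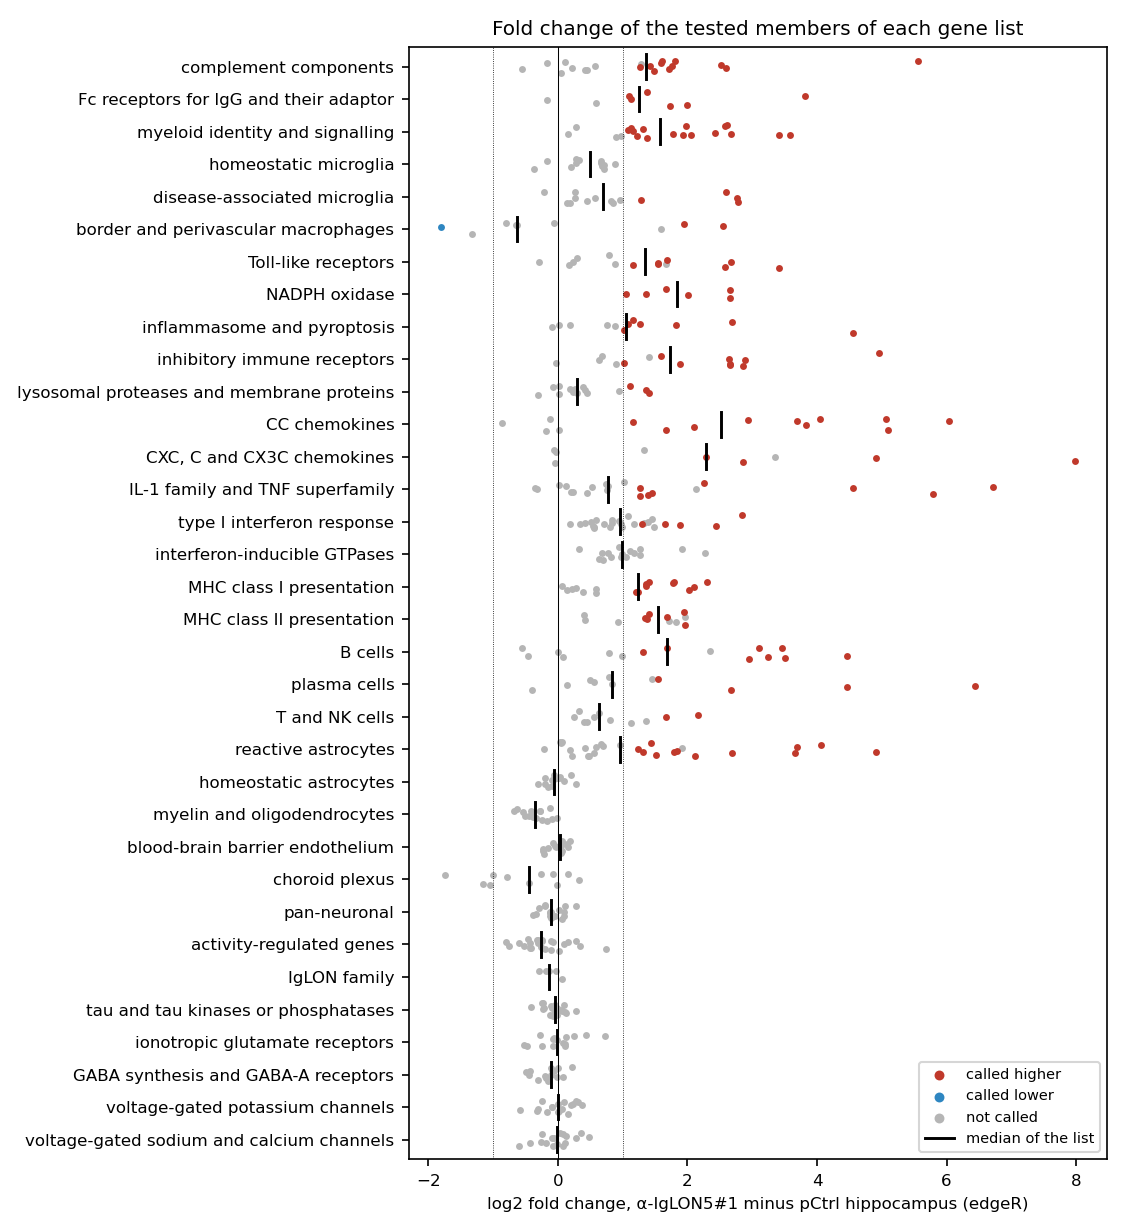
Log2 fold change of α-IgLON5#1 against pCtrl hippocampi (x axis, edgeR) for each tested gene of 34 gene lists (y axis), with called genes in red (higher) or blue (lower), other genes in gray, list medians as black bars and dotted lines at a 2-fold change. Genes called higher stand in the immune lists, with medians such as 1.84 for the NADPH oxidase and 2.51 for the CC chemokines, whereas the pan-neuronal and blood-brain barrier lists have medians of -0.11 and 0.03 without a called gene.

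The calls of single genes depended on the fit to different degrees. Of 107 called genes with values in the text, 106 were tested by DESeq2 and all of these stayed called, 100 did with its fold changes shrunken by apeglm, and 792 of 856 calls stayed when single libraries were left out. With the composition score as a covariate, 57 stayed called, and of the 50 that did not, 5 kept an adjusted p under 0.05 with a fold change under 2. With the score free of called and activity-regulated genes as the covariate, 63 stayed called, and all 44 that did not were also lost with the whole score. With both pCtrl mice of the highest scores (10 and 37) left out, an alternative chosen after the scores were seen, 66 stayed called, and of the 41 that did not, 40 were also lost with the covariate (the exception is Ccl8). With only the mice numbered 8 to 17, which leaves 2 pCtrl libraries, 31 stayed called. Every α-IgLON5#1 mouse falls in this range, whereas pCtrl mice 37 and 75 do not, so treatment and mouse number are partly tied. What the numbers stand for is not given, and their part in the results was not tested. A fit of only the 8 libraries kept 82 of the 103 it tested and lost Ms4a7, Tnfsf13b, Ccl12, Cxcl10, Acod1, Icam1, Lcn2, Osmr, Mx1, Irf7, Cd4, Cd74, Mki67 and Ube2c among the higher and Igfn1, Prkg2, Bmp3, Ptger3, Ccn2, Foxp2 and Pomc among the lower genes. The fit of the 13 hippocampal libraries kept 95 of the 103 it tested. It called no gene of the T and NK cell, axon injury and neuropeptide lists, where the main fit called Cd4, Cd5, Atf3 and Pomc. Below, values of single libraries are CPM, given in the order of pCtrl mice 10, 15, 37 and 75 and of α-IgLON5#1 mice 8, 9, 16 and 17, and calls lost with the covariate or without a single library are given by gene or by number.

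To see which sequence elements the regulated genes carry, RefSeq promoter windows (250 bases before to 50 after the start, build GRCm38.p6) were searched on both strands for 3 short motifs. The PU.1-type motif GAGGAAGT, bound by the master regulator of myeloid cells, was found in 33 of 295 promoters of genes called higher (11.2%), against 386 of 13405 promoters of tested genes (2.88%) and 3.28% of all 27025 windows. The interferon-stimulated core GAAANNGAA was found in 47 of the 295 (15.9%), against 7.25% of tested genes and 8.57% of all windows. The Y-box-type motif CTGATTGG, known from MHC promoters, was found in 17 of the 295 (5.76%), close to the 5.61% of tested genes. No test was made of these shares. The interferon core was present in 12 of 18 windows of the type I interferon list and 9 of 10 of the interferon-inducible GTPases, the Y box in 7 of 15 of the MHC class I list and 3 of 9 of the class II list, and the PU.1 motif in 4 of 10 of the inhibitory immune receptors but 1 of 12 of the list for myeloid identity and signalling. None of the 31 windows of genes called lower held the PU.1 motif, and 2 each held the others. The following windows, 5′ to 3′ on the strand of the gene, are shown because they carry 1 match each of the named motif near the start of a gene whose level is described below, and capitals mark this match on either strand. The Cxcl10 window also holds a Y-box match, which is not in capitals.

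Cxcl10, interferon core 213 bases before the start, chr5:92348840-92349139, minus strand: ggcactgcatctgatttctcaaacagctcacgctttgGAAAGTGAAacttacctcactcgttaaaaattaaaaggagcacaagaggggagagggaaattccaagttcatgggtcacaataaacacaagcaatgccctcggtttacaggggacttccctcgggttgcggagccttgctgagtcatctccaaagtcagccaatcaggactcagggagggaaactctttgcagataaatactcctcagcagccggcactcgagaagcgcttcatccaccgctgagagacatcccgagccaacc
Gbp2, interferon core 58 bases before the start, chr3:142620413-142620712, plus strand: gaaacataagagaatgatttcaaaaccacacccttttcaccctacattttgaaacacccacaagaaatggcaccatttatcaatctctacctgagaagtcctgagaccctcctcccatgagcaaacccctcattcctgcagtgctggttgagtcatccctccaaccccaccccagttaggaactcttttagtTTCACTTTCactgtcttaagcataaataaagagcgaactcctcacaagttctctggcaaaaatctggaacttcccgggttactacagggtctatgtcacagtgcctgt
H2-D1, Y box 53 bases before the start, chr17:35262844-35263143, plus strand: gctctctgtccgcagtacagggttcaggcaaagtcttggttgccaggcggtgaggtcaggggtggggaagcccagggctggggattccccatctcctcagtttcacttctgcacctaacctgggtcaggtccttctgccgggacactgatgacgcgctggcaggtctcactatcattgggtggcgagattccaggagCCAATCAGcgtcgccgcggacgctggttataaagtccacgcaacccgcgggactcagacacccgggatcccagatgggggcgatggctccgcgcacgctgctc
Cd72, PU.1 motif 49 bases before the start, chr4:43454577-43454876, minus strand: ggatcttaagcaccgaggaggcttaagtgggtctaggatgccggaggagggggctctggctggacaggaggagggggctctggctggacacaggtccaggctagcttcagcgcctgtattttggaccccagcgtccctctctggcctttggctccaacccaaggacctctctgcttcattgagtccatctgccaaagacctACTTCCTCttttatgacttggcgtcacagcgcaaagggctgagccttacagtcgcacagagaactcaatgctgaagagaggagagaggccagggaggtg
Pycard, PU.1 motif 44 bases before the start, chr7:127993818-127994117, minus strand: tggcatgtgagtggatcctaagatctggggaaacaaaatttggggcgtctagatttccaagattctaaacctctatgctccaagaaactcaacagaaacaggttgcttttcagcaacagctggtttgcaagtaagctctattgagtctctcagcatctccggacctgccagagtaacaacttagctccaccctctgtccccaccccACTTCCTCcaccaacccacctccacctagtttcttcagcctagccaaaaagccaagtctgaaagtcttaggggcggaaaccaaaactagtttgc
Pirb, PU.1 motif 120 bases before the start, chr7:3720333-3720632, minus strand: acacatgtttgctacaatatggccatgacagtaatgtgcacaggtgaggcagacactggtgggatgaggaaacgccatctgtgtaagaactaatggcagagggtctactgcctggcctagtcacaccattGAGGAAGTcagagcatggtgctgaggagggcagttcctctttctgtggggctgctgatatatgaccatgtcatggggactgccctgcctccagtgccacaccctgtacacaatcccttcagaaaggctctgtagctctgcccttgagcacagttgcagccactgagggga

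A match in these letters is a description of the sequence and not evidence of binding.

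Of 8 tested genes for Fc receptors and their signalling partners, 6 were called higher (median log2 fold change of the list 1.25, of all tested genes 0.00). Fcer1g (ENSMUSG00000058715.11, chromosome 1, 171229572 to 171234365), the gamma chain through which activating Fc receptors signal, stood at 5.45, 7.10, 6.33 and 5.69 in pCtrl and at 19.4, 41.1, 23.9 and 14.5 in α-IgLON5#1. Fcgr4, an activating receptor, stood at 0.102, 0.620, 0.0476 and 0.221 in pCtrl and at 3.79, 6.25, 3.40 and 1.55 in α-IgLON5#1. Fcgr2b, the inhibitory receptor of the family, stood at 4.58, 6.65, 5.61 and 4.37 in pCtrl and at 31.0, 16.8, 12.2 and 10.7 in α-IgLON5#1. In all 3 genes, every α-IgLON5#1 library lay above every pCtrl library, with mouse 9 highest for the activating genes and mouse 8 highest for Fcgr2b. The log2 fold changes were 2.0 for Fcer1g (standard error 0.27, adjusted p = 1.75e-05), 3.82 for Fcgr4 (0.67, adjusted p = 0.000614) and 1.72 for Fcgr2b (0.28, adjusted p = 0.000275). Fcgr1, Fcgr3 and Syk, a kinase downstream of the gamma chain, rose by 1.37, 1.10 and 1.13 on the log2 scale, and Syk fell under a 2-fold change without α-IgLON5#1 mouse 8 (0.92). Fcgrt, the neonatal Fc receptor that protects IgG from degradation, stood at 19.8 to 28.5 in pCtrl and 15.8 to 24.8 in α-IgLON5#1 (log2 fold change -0.17, adjusted p = 0.659). With the composition score as a covariate, Fcgr4 and Fcgr1 were no longer called (adjusted p = 0.0812 and 0.181), and Fcgr3 had a log2 fold change of 0.995, which left 3 of the 8 called.

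Of 20 complement genes, 11 were called higher (median 1.35) and 10 did not overlap between the groups, against 6.68% of all genes with all α-IgLON5#1 above all pCtrl libraries. C1qb, 1 of the 3 chains of C1q, stood at 37.1, 45.9, 36.9 and 40.3 in pCtrl and at 100, 170, 118 and 94.7 in α-IgLON5#1. It rose by 1.59 on the log2 scale (standard error 0.14, adjusted p = 2.0e-07), close to those of C1qa (1.61) and C1qc (1.49). C4b, which C1q-bound proteases cleave, stood at 56.9, 68.1, 44.6 and 70.6 in pCtrl and at 195, 192, 147 and 108 in α-IgLON5#1. The central component C3 stood at 0.196 to 1.62 in pCtrl and at 53.4, 25.2, 24.1 and 22.5 in α-IgLON5#1, with mouse 8 far above the other 3. Itgb2 (ENSMUSG00000000290.13), the common beta chain of the complement receptors, rose from 4.92, 6.65, 5.30 and 5.40 to 17.8, 25.7, 18 and 14.7 (log2 fold change 1.77, standard error 0.17, adjusted p = 6.70e-07). With the composition covariate, C4b was no longer called (log2 fold change 0.74, adjusted p = 0.248), and 7 of the 20 genes were.

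Of 20 genes for myeloid identity and signalling, 16 were called higher, and all 20 had a fold change above 0 (median 1.58). The smallest adjusted p of all genes outside the lists belonged to Fyb (ENSMUSG00000022148.16, chromosome 15, 6522853 to 6663313), an adaptor of leukocyte signalling, which stood at 4.33, 5.04, 3.76 and 3.48 in pCtrl and at 19, 24.4, 25.7 and 12.1 in α-IgLON5#1 (log2 fold change 2.28, standard error 0.20, adjusted p = 2.0e-07). Ptprc, the pan-leukocyte marker CD45, stood at 5.51, 7.05, 5.02 and 4.86 in pCtrl and at 25.3, 21.7, 25 and 16.4 in α-IgLON5#1. Irf8, a transcription factor of microglia, stood at 5.60, 7.42, 5.54 and 5.47 in pCtrl and at 17.1, 17.5, 16.5 and 11.7 in α-IgLON5#1. These genes were evenly raised in mice 8, 9 and 16 and lower in mouse 17, which still lay above all pCtrl mice. Aif1, which encodes the microglial protein Iba1, stood at 4.43, 5.79, 4.35 and 4.29 in pCtrl and at 11.2, 31.9, 19.8 and 9.42 in α-IgLON5#1 (log2 fold change 1.93, standard error 0.32, adjusted p = 0.000344). Cd52, a small surface glycoprotein of leukocytes, rose 12-fold, from 1.08 to 2.25 in pCtrl to 7.93 to 33.0. Aif1 and the endotoxin co-receptor gene Cd14 were no longer called with the composition covariate (adjusted p = 0.0798 and 0.0529), and 9 of the 20 genes were.

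Among the genes of the smallest adjusted p, Unc93b1, which brings nucleic acid sensing receptors to endosomes, stood at 18, 19.8, 18.4 and 16.2 in pCtrl and at 39.4, 62.2, 49.3 and 35.5 in α-IgLON5#1 (log2 fold change 1.36, adjusted p = 3.57e-07). Ptpn6, the phosphatase SHP-1 that acts downstream of inhibitory receptors, stood at 3.23, 3.91, 3.47 and 3.36 in pCtrl and at 14.4, 22, 17.3 and 8.42 in α-IgLON5#1. Clec4a1, a lectin receptor of myeloid cells, stood at 0.449 to 0.714 in pCtrl and at 6.39, 5.01, 4.99 and 4.24 in α-IgLON5#1, a 9.15-fold rise with little spread between mice. Mpeg1, a pore-forming protein of macrophages, Hvcn1, the voltage-gated proton channel of phagocytes, Neurl3, a ubiquitin ligase, Cd48, an adhesion receptor, Apobec3, a cytidine deaminase that restricts viruses, and Clec4a3 rose by 1.15, 2.04, 2.10, 2.20, 1.60 and 2.34 on the log2 scale. All of these were chosen for their small p in this comparison.

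None of the 12 homeostatic microglial genes passed the 2-fold threshold, although 6 had an adjusted p under 0.05 (median 0.50), against 4.23% of all tested genes on the higher side. Csf1r, the receptor that maintains microglia, stood at 112, 124, 115 and 106 in pCtrl and at 154, 252, 198 and 148 in α-IgLON5#1 (log2 fold change 0.72, standard error 0.11, adjusted p = 0.000113). P2ry12, a purine receptor of resting microglia, stood at 33.9, 39.6, 38.8 and 44.2 in pCtrl and at 18.1, 31.1, 35.6 and 35.6 in α-IgLON5#1 (-0.37, adjusted p = 0.241), lowest in mouse 8. The fit without α-IgLON5#1 mouse 17 called 1 of the 12 genes. Among 14 genes of disease-associated microglia, 4 were called higher (median 0.70, not tested against the homeostatic list, and 0.60 against 0.57 for that list without α-IgLON5#1 mouse 8): the signalling adaptor Tyrobp (1.29), the protease inhibitor Cst7 (2.77), the integrin Itgax (2.59) and the fungal glucan receptor Clec7a (2.78). Itgax stood at 0.368 to 0.676 in pCtrl and at 2.51, 4.17, 4.44 and 2.06 in α-IgLON5#1, with the groups apart. With the composition covariate, Cst7 and Clec7a were no longer called (adjusted p = 0.102 and 0.169), and Tyrobp had a log2 fold change of 0.998.

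Macrophages of the brain's borders did not move as 1 group. Of 9 tested marker genes, 2 were called higher and 1 lower (median -0.63). Ms4a7, a marker that sets border macrophages apart from microglia, stood at 0.899, 1.05, 1.24 and 0.957 in pCtrl and at 6.30, 1.80, 1.56 and 6.24 in α-IgLON5#1. Clec12a, an inhibitory lectin of myeloid cells, stood at 0.214 to 0.507 in pCtrl and at 2.21, 1.69, 1.26 and 2.15 in α-IgLON5#1. Lyve1, the hyaluronan receptor of perivascular macrophages, stood at 1.27, 1.47, 2.19 and 1.74 in pCtrl and at 0.541, 0.169, 0.582 and 0.515 in α-IgLON5#1 (log2 fold change -1.81, standard error 0.32, adjusted p = 0.000581). In Ms4a7 and Clec12a, mice 8 and 17 were high, whereas mouse 9 was the lowest α-IgLON5#1 library for Lyve1 and, with a list median of -1.84 relative to pCtrl, for the list as a whole. Without mouse 9 the median fold change of the list was -0.28. Of 10 tested neutrophil and monocyte genes, 2 were called higher (median 0.92), namely the monocyte marker Ly6c2 (0.0238 to 0.132 in pCtrl; 2.51, 0.563, 0.643 and 1.32 in α-IgLON5#1) and the cytokine receptor gene Csf3r (6.63 to 9.81 in pCtrl; 22.4, 27.9, 23.1 and 16.4), which microglia also express. The defining neutrophil gene Ly6g had at most 2 counts in any hippocampal library. The median of these 10 genes was 0.50 without α-IgLON5#1 mouse 8 and 1.5 to 1.69 without pCtrl mouse 10, 15 or 37. Leaving out α-IgLON5#1 mouse 16 gave 5 called genes of the 10, and with the covariate Ly6c2 was not called (adjusted p = 0.081).

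**Figure D2:**
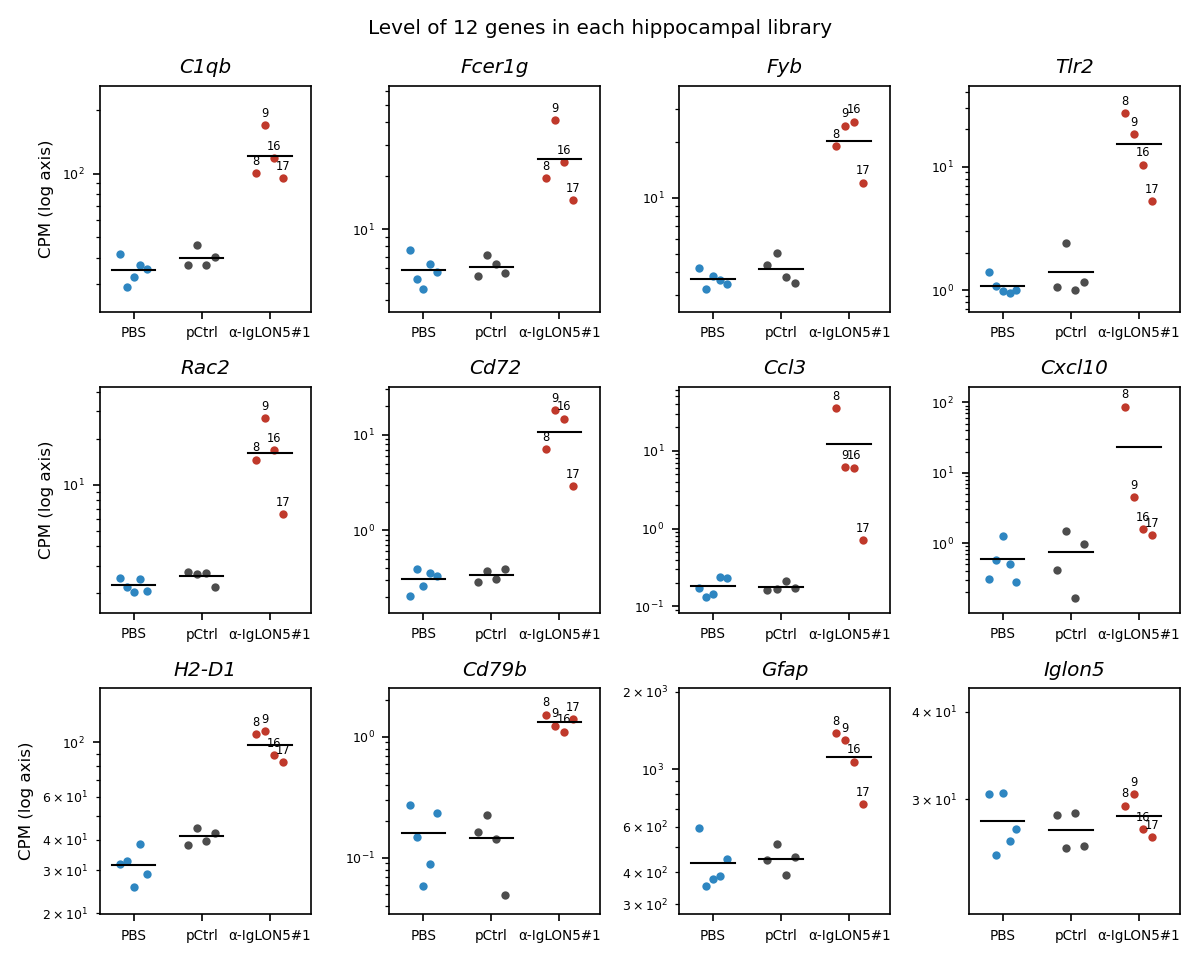
Level of 12 genes (CPM, log axis, a scale of its own for each gene) in the hippocampal libraries of PBS (n = 5), pCtrl (n = 4) and α-IgLON5#1 (n = 4) mice, with 1 point per mouse, group means as black bars and mouse numbers beside the α-IgLON5#1 points. For 10 of the genes all 4 α-IgLON5#1 points lie above all pCtrl points, with mouse 8 far above the rest for Ccl3 and with mouse 17 lowest for Cd72, whereas for Cxcl10 mouse 17 lies within the pCtrl range and for Iglon5 the groups overlap.

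All 6 genes of the NADPH oxidase, the enzyme that produces superoxide in phagocytes, were called higher (median 1.84), and in each the groups did not overlap. Rac2 (ENSMUSG00000033220.7, chromosome 15, 78559167 to 78572783), the GTPase that activates the complex, stood at 2.72, 2.63, 2.69 and 2.18 in pCtrl and at 14.6, 27.1, 16.8 and 6.47 in α-IgLON5#1 (log2 fold change 2.65, standard error 0.37, adjusted p = 3.26e-05). Ncf1, an organizing subunit, stood at 6.58, 7.86, 5.66 and 5.33 in pCtrl and at 17.6, 28.4, 22.9 and 12.6 in α-IgLON5#1. Cybb, the catalytic subunit, stood at 1.33, 2.76, 1.69 and 2.13 in pCtrl and at 24.4, 9.18, 5.15 and 11.6 in α-IgLON5#1 (2.66, adjusted p = 0.00295). Its membrane partner Cyba rose by 1.36 and the cytosolic subunit Ncf4 by 2.01 on the log2 scale. Mouse 9 was highest and mouse 17 lowest for the median of this list. Without α-IgLON5#1 mouse 9, 5 of the 6 were called. Under the composition covariate, 2 of the 6 kept their call (Rac2 and Ncf1), Cyba having a log2 fold change of 0.99 and Ncf4 and Cybb an adjusted p of 0.0641 and 0.22.

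Of 14 tested Toll-like receptors and their partners, 7 were called higher (median 1.35). Tlr2 (ENSMUSG00000027995.10), a receptor for bacterial lipoproteins, stood at 1.06, 2.41, 0.999 and 1.18 in pCtrl and at 27.2, 18.2, 10.4 and 5.24 in α-IgLON5#1 (log2 fold change 3.41, standard error 0.52, adjusted p = 0.000113), highest in mouse 8 and lowest in mouse 17. Tlr9 and Tlr13, endosomal sensors of DNA and of bacterial RNA, rose by 1.68 and 1.54, from 1.62 to 2.27 and from 1.53 to 2.86 in pCtrl. Tlr3, a sensor of double-stranded RNA, was not called (0.17, adjusted p = 0.494), nor was the adaptor Myd88 (3.45 to 4.83 in pCtrl; 13.1, 5.97, 5.24 and 5.58; 0.88, adjusted p = 0.0691), which was called without α-IgLON5#1 mouse 16 (1.02, adjusted p = 0.0357). Of 12 inflammasome and pyroptosis genes, 7 were called higher (median 1.05). The adaptor Pycard stood at 1.86, 2.5, 2.33 and 1.55 in pCtrl and at 4.03, 5.97, 4.87 and 3.67 in α-IgLON5#1, and the caspase gene Casp4, which senses cytosolic endotoxin, at 0.357 to 0.442 in pCtrl and at 5.36, 2.59, 1.68 and 1.4. Gsdmd, the pore protein of pyroptosis, rose by 1.02 on the log2 scale. The inflammasome count fell to 4 without α-IgLON5#1 mouse 8, and the fold change of Gsdmd fell under 2 without pCtrl mouse 10 (0.97), α-IgLON5#1 mouse 8 (0.995) or α-IgLON5#1 mouse 9 (0.89) on the log2 scale. Of the 14 Toll-like receptor genes, 3 kept their call with the composition covariate, and of the 12 inflammasome genes none did (adjusted p = 0.159 for Pycard, 0.106 for Casp4).

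Of 14 inhibitory immune receptors, 9 were called higher (median 1.74), and 6 with the composition covariate or without pCtrl mouse 37. Some of these receptors carry motifs that recruit phosphatases such as SHP-1. Cd72 (ENSMUSG00000028459.11) stood at 0.286, 0.376, 0.309 and 0.393 in pCtrl and at 7.03, 18.1, 14.8 and 2.89 in α-IgLON5#1 (log2 fold change 4.95, standard error 0.58, adjusted p = 2.71e-06). Pirb (ENSMUSG00000058818.13), a receptor for MHC class I, stood at 0.756, 1.01, 0.713 and 0.540 in pCtrl and at 10.6, 3.15, 2.85 and 6.07 in α-IgLON5#1 (2.88, standard error 0.44, adjusted p = 0.000112). Siglece, a sialic acid receptor, stood at 0.540 to 0.864 in pCtrl and at 6.25, 6.08, 4.26 and 2.29 in α-IgLON5#1. The order of the mice thus differed between genes: mouse 9 was highest for Cd72 and mouse 8 for Pirb, while mouse 17 was lowest for Cd72 and second for Pirb. Lag3, a receptor for MHC class II that is also expressed in the brain, rose by 1.60, from 7.19 to 11.8 in pCtrl to 17.3 to 35.4. Of 15 lysosomal genes, 3 were called higher and 10 had an adjusted p under 0.05 (median 0.30). The protease gene Ctss stood at 61.3, 82.9, 60.4 and 57.9 in pCtrl and at 144, 231, 176 and 148 in α-IgLON5#1, and Ctsz at 27.8 to 30.7 and at 63.6, 81.2, 58.9 and 46.6. Ctsz fell under a 2-fold change without α-IgLON5#1 mouse 9 (log2 fold change 0.96) and with the covariate (0.90).

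Of 14 tested CC chemokines, 10 were called higher (median 2.51), and of 9 tested chemokines of the other families 4 (median 2.29). Ccl3, which attracts monocytes and is made by activated microglia, stood at 0.163, 0.169, 0.214 and 0.172 in pCtrl and at 35.6, 6.19, 6.06 and 0.716 in α-IgLON5#1 (log2 fold change 6.04, standard error 1.16, adjusted p = 0.0016). Ccl5 stood at 0.0491 to 0.489 in pCtrl and at 6.74, 2.59, 1.72 and 1.60 in α-IgLON5#1, and Ccl12, a ligand of the monocyte receptor Ccr2, at 0.190 to 0.977 and at 25.9, 8.33, 3.40 and 1.4. Cxcl10, an interferon-inducible chemokine, stood at 0.409, 1.48, 0.166 and 0.957 in pCtrl and at 86.5, 4.45, 1.56 and 1.29 in α-IgLON5#1. Mouse 8 was highest for all 4 of these genes, and mouse 17 lay within the pCtrl range of Cxcl10. The membrane-bound chemokine Cxcl16 was more even between mice (1.64 to 2.65 in pCtrl; 12.2, 14.6, 9.65 and 6.36). For the monocyte attractant Ccl8 (0.0245 to 0.207 in pCtrl; 2.95, 0.394, 0.827 and 2.29), mice 8 and 17 were high. Cxcl13, the B cell attractant, had 0, 5, 0 and 0 counts in pCtrl and 88, 327, 191 and 88 in α-IgLON5#1, highest in mouse 9. Without α-IgLON5#1 mouse 8, 6 CC chemokines and 2 of the others were called (median of the others 1.32), and Cxcl10 was not (log2 fold change 1.58, adjusted p = 0.434), nor was it without pCtrl mouse 10 (adjusted p = 0.0567) or pCtrl mouse 37 (adjusted p = 0.0658, with 2 of the 9 called). With the composition covariate, 1 of the 14 CC chemokines kept its call, and Ccl3, Ccl5, Ccl12 and Cxcl10 did not (adjusted p = 0.248 to 0.525).

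Among 21 genes of the IL-1 family and the TNF superfamily, 8 were called higher (median 0.77). Tnf had at most 3 counts in any pCtrl library and 148, 16, 6 and 7 counts in α-IgLON5#1, and the IL-1 receptor antagonist Il1rn at most 3 counts and 193, 11, 12 and 8. Against a floor of 3 counts per library, Tnf was at least 5.03 and Il1rn at least 5.35 higher on the log2 scale, with most of the counts in mouse 8. The same holds for Acod1, the enzyme that makes itaconate in activated macrophages (at most 2 counts in pCtrl; 418, 26, 14 and 15 counts; at least 6.45 higher). The scavenger receptor gene Marco had at most 1 count in pCtrl and 140, 93, 45 and 19 counts in α-IgLON5#1 (at least 5.74 higher), more spread over the mice. Il1a stood at 0.388 to 0.752 in pCtrl and at 3.54, 3.49, 2.54 and 0.830 in α-IgLON5#1. Saa3, an acute phase protein, stood at 0.0238 to 0.376 in pCtrl and at 29.1, 42.9, 3.06 and 6.16 in α-IgLON5#1, and Hcar2, a receptor for hydroxybutyrate, at 0 to 0.0752 and at 4.18, 1.86, 1.78 and 0.372. Tnfsf13b, which encodes the B cell survival factor BAFF, stood at 1.13 to 1.33 in pCtrl and at 1.92, 6.47, 4.23 and 1.49 in α-IgLON5#1, highest in mice 9 and 16. Its receptor gene Tnfrsf13b rose from 1.21 to 1.69 to 3.30, 5.29, 3.89 and 2.92 (log2 fold change 1.39, adjusted p = 1.33e-05). Of 17 tested genes of IL-6 family signalling, Osm and Osmr, a cytokine and its receptor, were called higher (median 0.40), Osm from 0.0982 to 0.207 to 0.738, 0.901, 0.368 and 0.430, and Osmr from 6.17 to 9.62 to 42.2, 18.7, 12.9 and 11.6. Il6 itself was below the count filter, with 0 to 6 counts in pCtrl and 19, 2, 2 and 3 in α-IgLON5#1.

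Several of these calls rested on 1 library. Without α-IgLON5#1 mouse 8, 4 of the 21 genes of the IL-1 and TNF list and none of the IL-6 list were called, and Tnf, Acod1, Il1rn, Osmr and Osm lost their calls (adjusted p = 0.155, 0.125, 0.331, 0.185 and 0.0924, log2 fold change of Osmr 0.94). Without pCtrl mouse 10, Il1rn, Osmr and Osm lost them (adjusted p = 0.0597, 0.0809 and 0.0668), and without pCtrl mouse 37 likewise (0.0657, 0.0914 and 0.0862), with no IL-6 list gene called in either fit. Osm was also not called without pCtrl mouse 75 or α-IgLON5#1 mouse 9 (adjusted p = 0.0628 and 0.115), which left 1 gene of that list. With the composition covariate, 1 of the 21 genes of the IL-1 and TNF list was called, and Tnf, Il1rn, Acod1, Marco, Hcar2, Il1a, Tnfsf13b, Osm and Osmr lost their calls (adjusted p = 0.119 to 0.593), and the log2 fold change of Saa3 was 4.12 in place of 6.94.

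**Figure D3:**
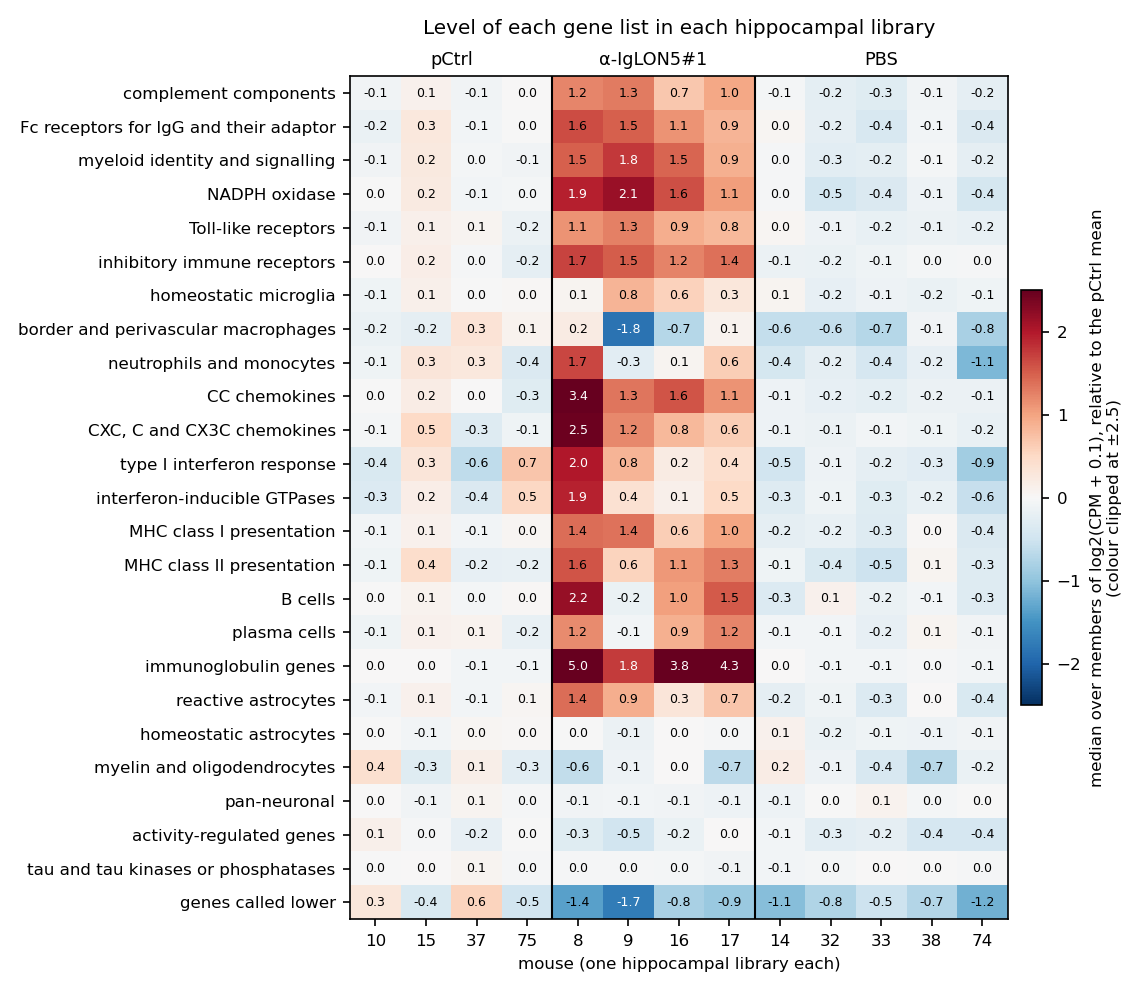
Median over the tested genes of each list (rows) of log2(CPM + 0.1) in each hippocampal library (columns, by mouse number within pCtrl, α-IgLON5#1 and PBS), relative to the mean of the pCtrl libraries, with the value printed in each cell and the color clipped at 2.5 in either direction. The list for myeloid identity and signalling is raised in all 4 α-IgLON5#1 mice, whereas the chemokine and interferon lists are highest in mouse 8 and the B cell list is lowest in mouse 9.

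The mice differed in which lists were raised most. For the myeloid list, the median over its genes relative to the pCtrl mean was 1.49, 1.76, 1.46 and 0.894 in α-IgLON5#1 mice 8, 9, 16 and 17. For the CC chemokines it was 3.44, 1.33, 1.58 and 1.12, and for the type I interferon response 2.0, 0.842, 0.204 and 0.412. For homeostatic microglia it was 0.0631, 0.845, 0.567 and 0.291, with mouse 8 lowest. The B cell list stood at 2.17, -0.17, 1.03 and 1.53. Mouse 8 was therefore highest for chemokines, interferon genes and B cells, mouse 9 highest for the myeloid and homeostatic microglial lists and lowest for B cells, and mouse 17 lowest for the myeloid list but second for B cells. These are values of single mice and were not tested. In the same 4 mice the collagen list stood at 0.417, -0.932, -0.354 and 0.420, the border macrophage list at 0.214, -1.84, -0.722 and 0.0925, and the composition score was lowest in mouse 9. The part of these 3 measures in the differences between mice was not tested.

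Most interferon-regulated genes had positive fold changes that did not pass the test. All 26 tested genes of the type I interferon response and all 16 interferon-inducible GTPases had a fold change above 0 (medians 0.96 and 0.98), but 5 and 0 of them were called. Without α-IgLON5#1 mouse 8 these medians were 0.35 and 0.50, and with the composition covariate 0.23 and 0.46. Irf7, a transcription factor of the response, stood at 1.35, 3.65, 1.88 and 3.58 in pCtrl and at 16.8, 7.54, 4.20 and 4.81 in α-IgLON5#1 (log2 fold change 1.66, standard error 0.50, adjusted p = 0.0423). Mx1, an antiviral GTPase, stood at 0.225, 0.996, 0.166 and 0.957 in pCtrl and at 12.5, 3.26, 1.01 and 0.659 in α-IgLON5#1. Gbp2, a GTPase chosen for display after its values were seen, stood at 3.55, 5.37, 3.54 and 6.97 in pCtrl and at 50.8, 10.0, 5.76 and 7.62 in α-IgLON5#1, and was not called (1.92, adjusted p = 0.0526). Already among the pCtrl mice, 15 and 75 stood above 10 and 37 for these genes, and α-IgLON5#1 mouse 8 was farthest above that range. Without pCtrl mouse 10, pCtrl mouse 37, α-IgLON5#1 mouse 8 or α-IgLON5#1 mouse 9, none of the 26 was called (adjusted p of Irf7 0.14, 0.149, 0.257 and 0.0868, of Mx1 0.111, 0.129, 0.369 and 0.0624). In the fit without α-IgLON5#1 mouse 16, 6 of the 26 and 5 of the 16 were called, Gbp2 among them, and without mouse 17, 6 and 4. None was called with the composition covariate (adjusted p = 0.634 for Irf7 and 0.656 for Mx1).

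Of 17 genes of antigen presentation by MHC class I, which displays peptides to CD8 T cells, 10 were called higher (median 1.24) and 12 did not overlap between the groups. B2m, the invariant light chain, stood at 65.7, 78.0, 69.1 and 72.5 in pCtrl and at 144, 213, 162 and 140 in α-IgLON5#1 (log2 fold change 1.21, standard error 0.12, adjusted p = 4.61e-07). H2-D1 (ENSMUSG00000073411.12), a heavy chain, stood at 38.2, 44.9, 39.4 and 42.7 in pCtrl and at 108, 111, 88.8 and 83.2 in α-IgLON5#1, and the heavy chain H2-K1 at 28.1 to 31.4 and at 98.1, 75.6, 59.4 and 69.3. The 4 mice lay within a narrow range in these genes. Psmb8, a subunit of the immunoproteasome, stood at 1.57, 1.90, 1.66 and 1.86 in pCtrl and at 7.53, 9.40, 3.98 and 3.78 in α-IgLON5#1. H2 heavy chains are near-identical to each other, so reads could have been split among them. Of 12 class II genes, 6 were called higher (median 1.55), among them Ifi30, a thiol reductase that prepares antigen (2.12 to 2.87 in pCtrl; 10.6, 12.2, 8.70 and 6.5; log2 fold change 1.95, adjusted p = 1.16e-06), and the invariant chain Cd74. Cd74 stood at 9.93, 20.4, 8.23 and 6.75 in pCtrl and at 82.4, 10.5, 25.9 and 58.0 in α-IgLON5#1 (1.96, standard error 0.60, adjusted p = 0.0472), with mouse 9 inside the pCtrl range. Cd74 lost its call without pCtrl mouse 10, 37 or 75 (adjusted p = 0.126, 0.158 and 0.104) and without α-IgLON5#1 mouse 8 or 17 (0.2 and 0.0891), and the class II count rose to 10 without α-IgLON5#1 mouse 16. Psmb8 and Cd74 lost their calls with the composition covariate (adjusted p = 0.248 and 0.384), under which 4 of the 17 class I and 2 of the 12 class II genes were called, and the fit of the 8 libraries also called 2 of the class II genes.

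Of 15 tested B cell genes, 8 were called higher (median 1.68), and of 11 plasma cell genes 4 (median 0.83). Cd79b (ENSMUSG00000040592.11), a signalling chain of the B cell receptor, stood at 0.163, 0.226, 0.143 and 0.0491 in pCtrl and at 1.52, 1.24, 1.10 and 1.4 in α-IgLON5#1 (log2 fold change 3.11, standard error 0.43, adjusted p = 2.86e-05). Cd22, an inhibitory receptor of B cells, stood at 0.0713 to 0.376 in pCtrl and at 2.07, 1.75, 1.5 and 1.95 in α-IgLON5#1. Both genes were even across the 4 mice. Pou2af1, a coactivator of B cells, stood at 0.0491 to 0.166 in pCtrl and at 4.77, 0.0563, 1.65 and 2.78 in α-IgLON5#1, and Irf4, a transcription factor of plasma cells, at 0.306 to 0.452 and at 4.38, 0.675, 1.62 and 2.41. Jchain (ENSMUSG00000067149.6), which joins IgA and IgM, stood at 0.327, 0.958, 0.166 and 0.564 in pCtrl and at 52.4, 4.67, 40.2 and 81.9 in α-IgLON5#1 (log2 fold change 6.44, standard error 0.65, adjusted p = 8.44e-07). In these 3 genes mouse 9 was lowest, within the pCtrl range for Pou2af1. Blnk, an adaptor of B cells that microglia also express, rose from 2.5 to 3.53 to 8.31, 9.85, 8.70 and 5.24. Without pCtrl mouse 37 or with the composition covariate, 5 of the 15 B cell genes were called, and 4 with the 13 hippocampal libraries or the 8 compared (median 0.99 in both). The count of plasma cell genes was 4 with the covariate and 3 in both of the smaller fits.

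Summed over all immunoglobulin genes, counts were 12.7 to 16.5 CPM in pCtrl, 7.81 to 13 in PBS and 1632, 107.5, 640.2 and 2018 in α-IgLON5#1 hippocampi. Of the 68 immunoglobulin genes that passed the count filter, 27 had no count in any pCtrl hippocampus, so these passed through other libraries only, and the share of the 68 called is not read as a result. The infused antibodies are human proteins and carry no RNA. The kappa constant gene Igkc stood at 0.166 to 2.48 in pCtrl and at 358, 31.1, 117 and 363 in α-IgLON5#1. Ighm, the constant gene of IgM, stood at 8.29 to 11.2 in pCtrl and at 223, 34.0, 144 and 329, and Igha, that of IgA, at 0 to 1.13 and at 85.7, 8.67, 50.9 and 66.5. The IgG classes differed between mice: Ighg2b stood at 308, 14.4, 71.0 and 431 and Ighg3 at 54.3, 2.76, 30.7 and 75.3, against 0 to 0.714 and 0 to 0.244 in pCtrl. For Igha mouse 8 was highest and for the other 4 constant genes mouse 17, and mouse 9 was lowest for all 5. Members of these families are near-identical in sequence, so single genes are uncertain. Of 25 T and NK cell genes, 11 passed the count filter and Cd4 and Cd5 were called higher (median 0.64). Cd4, which macrophages can also express, stood at 0.393 to 0.545 in pCtrl and at 2.31, 0.394, 0.827 and 2.41 in α-IgLON5#1, and was not called without α-IgLON5#1 mouse 8 or mouse 17 (adjusted p = 0.0653 and 0.0655), which left 1 gene called. The median of the list was 0.42 without mouse 8. Cd5, which T cells and some B cells carry, stood at 0.0245 to 0.150 in pCtrl and at 0.443, 0.675, 0.459 and 0.258 in α-IgLON5#1. All 11 tested genes had a fold change above 0, and the summed level of the 25 genes was 7.68, 9.85, 5.83 and 8.05 CPM in pCtrl, 7.88 to 9.98 in PBS and 19.1, 13.6, 11.7 and 13.7 in α-IgLON5#1, so that the groups did not overlap. Among the genes below the count filter, which were not tested, the T cell receptor chain gene Cd3e had 4, 12, 4 and 7 counts in pCtrl (0.0817 to 0.226 CPM) and 8, 4, 11 and 7 in α-IgLON5#1 (0.20 to 0.394 CPM), whose libraries are smaller. Cd3d, another chain, had 0, 4, 2 and 0 counts in pCtrl and 8, 3, 2 and 5 in α-IgLON5#1, and Cd2, an adhesion receptor of T and NK cells, 8, 7, 3 and 0 and 22, 3, 5 and 19; both were chosen after their counts were seen. Ifng had 0 counts in all 13 hippocampal libraries, which allows up to 3 counts per library. With the composition covariate Cd4 and Cd5 lost their calls (adjusted p = 0.0689 and 0.206).

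All 20 cell cycle genes had a fold change above 0, and Mki67 and Ube2c were called higher (median 0.53). The proliferation marker Mki67 stood at 3.98, 5.58, 2.66 and 4.02 in pCtrl and at 8.21, 11.2, 7.32 and 6.44 in α-IgLON5#1, and Ube2c, a mitotic ubiquitin enzyme, at 0.190 to 0.409 and at 0.443, 1.07, 0.613 and 0.573. The groups did not overlap in either gene. Mki67 was not called without pCtrl mouse 10, pCtrl mouse 37 or α-IgLON5#1 mouse 9 (adjusted p = 0.0544, 0.0914 and 0.0914), and Ube2c without pCtrl mouse 15, 37 or 75 or α-IgLON5#1 mouse 9 (0.0743, 0.149, 0.0672 and 0.184). Neither was called with the composition covariate (adjusted p = 0.668 and 0.584).

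Of 27 reactive genes, 12 were called higher (median 0.96), whereas none of 14 homeostatic genes was (median -0.06, range -0.31 to 0.27). Gfap (ENSMUSG00000020932.14, chromosome 11, 102887336 to 102900912), the intermediate filament of astrocytes, stood at 446, 513, 388 and 458 in pCtrl and at 1379, 1295, 1072 and 732 in α-IgLON5#1 (log2 fold change 1.31, standard error 0.27, adjusted p = 0.00261). Steap4, a metalloreductase, stood at 0.388, 0.357, 0.333 and 0.245 in pCtrl and at 15.2, 5.01, 1.04 and 1.66 in α-IgLON5#1. Lcn2, the iron-binding protein lipocalin 2, stood at 0.613, 0.808, 1.12 and 0.540 in pCtrl and at 21.2, 15.6, 0.858 and 2.12 in α-IgLON5#1. All 4 mice lay above the pCtrl range for Gfap and Steap4, and mice 8, 9 and 17 for Lcn2, with mouse 16 inside it. For Steap4 and Lcn2 mice 8 and 9 were highest. Without α-IgLON5#1 mouse 8, 4 of the 27 were called (median 0.62) and Lcn2 was not (adjusted p = 0.0668), and 5 were called without pCtrl mouse 10 or pCtrl mouse 37 and 7 without α-IgLON5#1 mouse 9. With the composition covariate, Gfap, Steap4 and Lcn2 lost their calls (log2 fold change of Gfap 0.80, adjusted p = 0.331, 0.241 and 0.582), and 1 of the 27 was called. Cxcl10, H2-D1 and Psmb8 stand in other lists as well, so the counts of the lists overlap.

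The lists for vessels, other glia and fluid barriers held 1 called gene. Of 9 tested endothelial adhesion genes, Icam1, a ligand of leukocyte integrins, was called higher (2.43, 2.88, 2.12 and 3.29 in pCtrl; 18.8, 8.11, 4.62 and 5.64), and without α-IgLON5#1 mouse 8 it was not (log2 fold change 1.18, adjusted p = 0.0664), nor with the composition covariate (adjusted p = 0.356). The selectin genes Sele and Selp, induced on activated endothelium, had 153 and 79 counts in α-IgLON5#1 mouse 8 and at most 5 in any other hippocampal library. Of 15 blood-brain barrier genes, 16 myelin genes, 8 genes of oligodendrocyte precursors, 11 of the choroid plexus, 14 of motile cilia, 13 collagens and 5 of erythrocytes, none was called, with medians of 0.03, -0.36, -0.01, -0.44, 0.08, -0.02 and -0.49. All 16 myelin genes had a fold change below 0, and their median was -0.20 without pCtrl mouse 10, -0.51 without α-IgLON5#1 mouse 16 and -0.02 without pCtrl mice 10 and 37. The collagen median ran from -0.22 to 0.27 and the erythrocyte median from -0.61 to -0.30 with single libraries left out. The fit without α-IgLON5#1 mouse 17 called 1 choroid plexus gene lower. Mbp stood at 2063, 1297, 1721 and 1235 in pCtrl and at 1081, 1436, 1701 and 1002 in α-IgLON5#1 (-0.28, adjusted p = 0.47), so that the groups overlapped. The basement membrane collagen Col4a2 stood at 60.9 to 71.1 in pCtrl and at 104, 92.3, 88.1 and 87.4 in α-IgLON5#1 (0.50, adjusted p = 0.00627), apart but under 2-fold.

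Iglon5 (ENSMUSG00000013367.5, chromosome 7, 43472904 to 43490075), the gene of the antibodies' target, stood at 28.5, 25.5, 28.7 and 25.7 in pCtrl and at 29.4, 30.5, 27.2 and 26.5 in α-IgLON5#1 (log2 fold change 0.06, standard error 0.10, adjusted p = 0.752). The other 4 members of the IgLON family had log2 fold changes of -0.30 to -0.03 and were not called. Mapt, which encodes Tau, stood at 539, 511, 532 and 472 in pCtrl and at 502, 477, 524 and 469 in α-IgLON5#1 (-0.06, standard error 0.06, adjusted p = 0.597). Of 23 genes for Tau and its kinases and phosphatases, none was called, and 3 had an adjusted p under 0.05 on the lower side (median -0.05, range -0.42 to 0.27). No gene was called among 18 pan-neuronal genes, 15 ionotropic glutamate receptor subunits, 15 genes of GABA signalling, 18 potassium channel and 17 sodium and calcium channel genes (medians -0.11, -0.01, -0.11, 0.01 and -0.02), where 2, 1, 3, 3 and 1 had an adjusted p under 0.05 on the lower side, against 2.78% of all tested genes, and 0, 1, 0, 0 and 2 on the higher side. Snap25 stood at 1940, 1776, 2059 and 1823 in pCtrl and at 1496, 1640, 1744 and 1755 in α-IgLON5#1 (-0.20, adjusted p = 0.194).

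Among 24 activity-regulated genes, none was called (median -0.26), and 2 were called lower without α-IgLON5#1 mouse 16. The median ran from -0.42 (without α-IgLON5#1 mouse 17) to -0.18 with single libraries left out. It was 0.05 with the composition covariate, whose cortex side holds 10 of these genes. Fos, the best known of them, stood at 50.9, 39.7, 36.9 and 43.8 in pCtrl and at 32.1, 16.3, 23 and 47.1 in α-IgLON5#1 (-0.52, standard error 0.35, adjusted p = 0.405), against 16.3 to 29.4 in PBS. The groups overlapped, with mouse 17 inside the pCtrl range and the other 3 within or near the PBS range. Of 11 genes of axon injury and neuronal stress, the stress-induced transcription factor Atf3 was called higher (0.666 to 1.28 in pCtrl; 3.20, 1.75, 2.11 and 1.95; log2 fold change 1.28, list median 0.11, and 0.009 to 0.23 with single libraries left out). Its adjusted p was 0.0483, and in each fit without a single library except that without pCtrl mouse 75 it was 0.0531 to 0.17, and 0.55 with the covariate. None of 25 markers of hippocampal and cortical regions was called (median 0.18, and 0.09 to 0.26 with single libraries left out), and 1 was without pCtrl mouse 15, pCtrl mouse 75 or α-IgLON5#1 mouse 16. Of 17 neuropeptide genes, Pomc was called lower (list median -0.22), and it was also the only one of 5 tested pituitary hormone genes called (median -2.09). Pomc stood at 94.5, 3.59, 3.80 and 30.2 in pCtrl, at 0.844 to 1.97 in α-IgLON5#1 and at 0.908 to 56.5 in PBS, and with shrunken fold changes its log2 fold change was -0.03 in place of -4.81. It was not called without pCtrl mouse 10 (adjusted p = 0.127), without α-IgLON5#1 mouse 8, 9 or 17 (0.0661, 0.0815 and 0.0565) or with the covariate (0.151). The summed CPM of the pituitary list ran from 7.5 to 220.2 in pCtrl, from 1.97 to 41.5 in α-IgLON5#1 and from 4.13 to 3905 in PBS hippocampi, so that hormone genes differed between libraries of every group.

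The 48 lower genes were mostly genes of higher level in cortex. In the PBS libraries, 43 of them (89.6%) were higher in cortex than in hippocampus, against 48.2% of all tested genes, and 31 (64.6%) by more than 2-fold, against 2.43%. Bmp3, a ligand of the BMP family, stood at 29.0, 14.7, 43.3 and 14.7 in pCtrl, at 8.95, 5.07, 12.7 and 12 in α-IgLON5#1 and at 6.99 to 15.2 in PBS hippocampi, with a mean of 41.8 in PBS cortices. Ccn2, a matricellular protein gene that marks the deepest layer of the cortex, stood at 44.2, 32.5, 43.2 and 33.1 in pCtrl, at 12.5, 4.45, 18.8 and 22.9 in α-IgLON5#1 and at 9.08 to 26.5 in PBS hippocampi, with a mean of 37.8 in PBS cortices. Foxp2, a transcription factor of deep cortical layers, stood at 8.86, 4.04, 8.87 and 4.05 in pCtrl, at 1.77, 0.394, 3.43 and 3.75 in α-IgLON5#1 and at 1.86 to 5.01 in PBS hippocampi. In Bmp3 and Foxp2, pCtrl mice 10 and 37, the mice of the highest composition scores, were high and pCtrl mice 15 and 75 lay within the PBS range. Bmp3 is itself a gene of that score, as are Igfn1 and Prkg2, so that their likeness to it is in part built in. Igfn1, a gene related to muscle filament proteins, stood at 7.88, 5.22, 21.9 and 4.44 in pCtrl and at 2.16, 0.281, 2.85 and 1.95 in α-IgLON5#1, and its mean was 2.41 in PBS hippocampi and 62.3 in PBS cortices. The kinase gene Prkg2 (log2 fold change -1.04) and the prostaglandin receptor gene Ptger3 (-1.38) followed, with their highest levels in pCtrl mouse 37 (16.7 and 12.5), while Gm20498 (-1.81) was more even between the pCtrl mice (0.395 to 0.515).

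**Figure D4:**
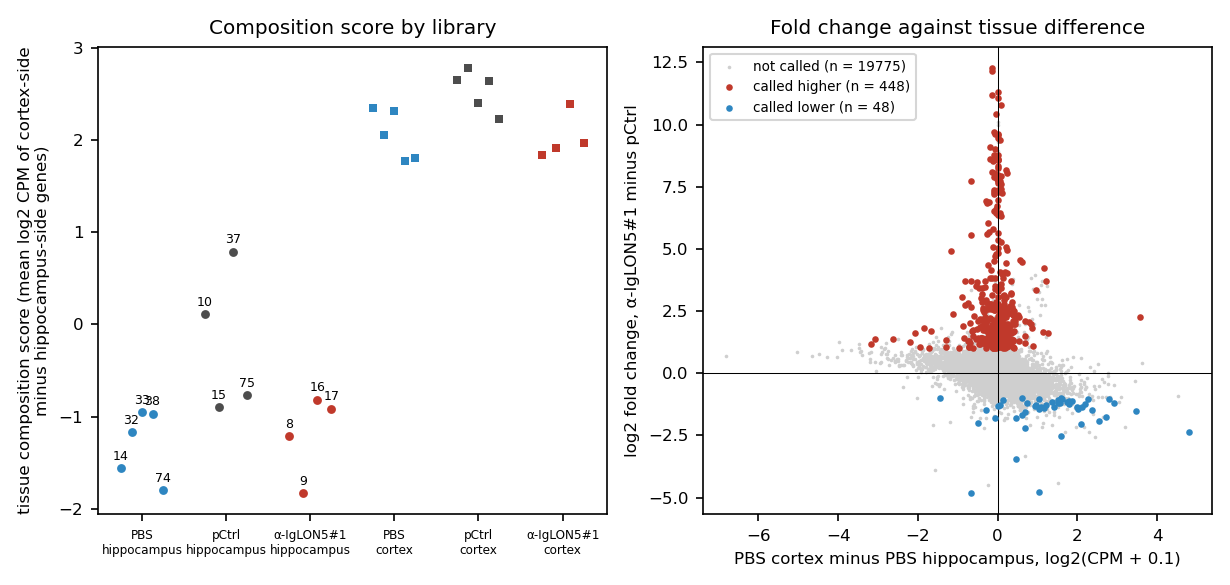
Left, tissue composition score (difference of mean log2 CPM) of each library by tissue and treatment, with mouse numbers beside the hippocampal points (circles). Right, log2 fold change of α-IgLON5#1 against pCtrl hippocampi (y axis) against the PBS cortex minus PBS hippocampus difference of log2(CPM + 0.1) (x axis) for each tested gene. On the left, pCtrl mice 10 and 37 lie nearest to the cortices, and on the right 43 of the 48 genes called lower (blue) lie at positive x values while the genes called higher (red) gather around 0.

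The number of lower genes followed single libraries. Leaving out pCtrl mouse 10 gave 15 lower genes and leaving out pCtrl mouse 37 gave 12, whereas the fits that lacked pCtrl mouse 15 or 75 gave 95 and 97. Of the fits that lacked an α-IgLON5#1 mouse, those for mice 8 and 9 gave 21 and 13 lower genes and that for mouse 16 gave 105. There were 2 with the composition score as a covariate and 2 with both pCtrl mice 10 and 37 left out. Prkg2 lost its call without pCtrl mouse 10, pCtrl mouse 37 or α-IgLON5#1 mouse 9 (log2 fold changes -0.97, -0.83 and -0.87), Bmp3 without pCtrl mouse 37 (-0.98), and Foxp2 without pCtrl mouse 10, pCtrl mouse 37, α-IgLON5#1 mouse 8 or α-IgLON5#1 mouse 9 (adjusted p = 0.0829, 0.0987, 0.0805 and 0.0659). With the covariate, Igfn1, Prkg2, Bmp3, Ptger3, Ccn2 and Foxp2 lost their calls (adjusted p = 0.19 to 0.648), while Lyve1 and Gm20498 kept them. Of these, Igfn1, Prkg2 and Bmp3 were adjusted for a score that contains them, and with the score free of called and activity-regulated genes all 6 were again not called (adjusted p = 0.109 to 0.532). Of the 448 higher genes, 206 (46.0%) were higher in PBS cortex, near the 48.2% of all genes, and 5 (1.12%) by more than 2-fold. Genes near 0 in the PBS libraries can hardly reach a 2-fold difference with the pseudocount of 0.1, which can lower this last share. The part of tissue composition in the higher genes was not tested by these shares.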

How the data were processed

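Libraries were prepared with the TruSeq stranded mRNA kit and sequenced paired-end on a NovaSeq, and reads were aligned to GRCm38 with STAR. The authors deposited raw counts per gene for all 27 libraries; the counting program, annotation and strand setting are not given in the sources used here, so overlapping, antisense and near-identical genes are uncertain. Of 55487 gene IDs, 54435 matched GENCODE M21 with their version and 792 without it. Genes with at least 10 counts in 4 or more libraries were tested with the edgeR 4.0.16 (R 4.3.3) quasi-likelihood fit, TMM scaling and 6 groups of tissue and treatment; a gene was called when it differed more than 2-fold with a Benjamini-Hochberg adjusted p below 0.05. Standard errors were the fold change divided by the square root of F. CPM used TMM library sizes, except for the sum over immunoglobulin genes, which used total counts. The log2 CPM of the composition score and the principal components used a prior count of 1. The list medians by library and the difference between PBS cortex and PBS hippocampus used a pseudocount of 0.1 CPM. Low depth limits genes under about 1 CPM, such as the 79 higher genes whose α-IgLON5#1 mean lay below it.

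Alternatives were DESeq2 1.42.0, apeglm 1.24.0, RLE size factors, other count filters, fewer libraries, thinned counts, single libraries left out and the composition score as a covariate, whole or without 20 called or activity-regulated genes (added after its genes were seen). The script was tested on simulated data. The 46 gene lists and the groups compared were chosen with earlier results of these data known. Genes named were the 10 of the largest change and the 10 of the smallest adjusted p in each direction, up to 5 called genes and the 2 of the highest level in each list, a few fixed genes and the immunoglobulin constant genes. That rule gives 223 genes, of which a part is described with values; some items are not reported here. Gbp2, Cybb, Syk and P2ry12 are outside it and were chosen after their values were seen. Promoters of chromosome 18 were not used. Within a tissue each library is a separate mouse, but 13 of the 14 mice gave both tissues, which the fit does not model.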

Additional observations from a re-analysis of the deposited data

Results flagged for a closer look

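Within the groups of 4 mice, 18 of 238 sets of values over 119 genes held a mouse whose distance from the others exceeded Dixon's 95% limit. About 1 in 20 sets of independent, normally distributed values would exceed it. The sets here come from related genes, some with counts in only 1 mouse of a group, so no excess is read from this number. pCtrl mouse 15 stood above the other 3 pCtrl mice for 8 immune genes: Ctss (82.9 CPM), Irf8 (7.42), Lag3 (11.8), Fcgr3 (13.8), Aif1 (5.79), Clec12a (0.507), Cxcl13 (0.094) and Tnf (0.0564). For the last 2 genes this is 5 and 3 counts against 0. In Ctss, Irf8, Lag3, Fcgr3, Aif1 and Clec12a it still lay below all 4 α-IgLON5#1 mice. pCtrl mouse 75 was low for Rac2 (2.18) and Blnk (2.5) and had the only Marco count of the group (0.0245), and pCtrl mouse 37 was low for Casp4 (0.357). Among the α-IgLON5#1 mice, mouse 8 was high for C3 (53.4) and Myd88 (13.1), mouse 9 was high for Tyrobp (41.9) and low for Lyve1 (0.169) and Igfn1 (0.281), and mouse 17 was low for Irf8 (11.7).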

How the results depend on the processing

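The count of 448 higher genes was 210 with at least 10 counts in every library, 251 with only the 8 libraries, 343 with the 13 hippocampal libraries, 151 with the composition covariate (150 of them shared), 172 with the score free of called and activity-regulated genes (171 shared), 48 with only mice numbered 8 to 17, 197 without pCtrl mice 10 and 37 and 857 without a fold threshold. The 48 lower genes became 26 with apeglm, 19 with at least 10 counts in every library, 11 with the 13 hippocampal libraries, 4 with the 8, 2 with either covariate, 1 with mice 8 to 17, 2 without pCtrl mice 10 and 37 and 563 without a fold threshold; apart from fewer genes or samples, the cause was not tested. With single libraries left out the counts ran from 326 (without α-IgLON5#1 mouse 8) to 506 and from 12 to 105. DESeq2 called 433 and 62 (404 and 45 shared), RLE scaling 440 and 48, and thinned counts 403 and 50. The composition score difference ranged from -1.24 (without pCtrl mouse 15, exact permutation p = 0.0286) to -0.677 with single libraries left out, and was -1.39 with 25 genes per side (p = 0.143) -0.776 with the larger gene number tried and -0.916 without called and activity-regulated genes. None of the 107 called genes with values in the text changed direction. Genes near 0 did: Mbp (0.0474) and Mapt (0.00724) without pCtrl mice 10 and 37, Mapt with either covariate (0.0385 and 0.0349) and Fcgrt with mice 8 to 17 (0.0213). No paired analysis was possible because the α-IgLON5#1 and pCtrl mice share no numbers.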

Other observations

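Of 47 list genes below the count filter, some had their counts in 1 mouse. Cxcl2, a neutrophil attractant, had 20 counts in α-IgLON5#1 mouse 8 and at most 1 in the other hippocampal libraries. Gzma, a protease of cytotoxic cells, had 14 counts in that mouse and 0 to 3 elsewhere. Mzb1, a chaperone of plasma cells, and the B cell kinase Blk had 26 and 17 counts in α-IgLON5#1 mouse 17, against at most 8 and 4 in the other hippocampal libraries. The pituitary gene Fshb had 633 counts in PBS mouse 74, 28 in pCtrl mouse 10 and at most 10 elsewhere. These genes were chosen after their counts were seen and were not tested.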
